A study of Mus musculus with 6 samples.

Results

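The half-methylated runs of lung endothelium were defined as 2 or more neighbouring 1-kb windows in which the mean CpG methylation lay from 40 to 60% in each of 6 samples. They were found in a genome-wide table of window means from whole-genome bisulfite sequencing made by tagmentation, which reads CpG methylation at single bases. The rule selected 2973 runs, made of 6185 of the 1683697 autosomal windows that had a value in every sample (0.367%). All 6 methylation values of a window chose it, so the levels of the runs and their likeness between samples are descriptions and not findings. Endothelial cells were sorted by flow cytometry out of the lungs of wild-type mice. The 2 groups were aged mice of 18 months (3 samples, aged 1 to 3) and mAdu mice of 8 months (3 samples, mAdu 1 to 3). Both ages come from the series' design text, and the older one was taken for the label "aged". Nothing in the labels ties the 3 samples of an age to different mice, so their spread may be partly technical. The table gives no read depth and no number of CpGs per window, so the counting error of a value is unknown.

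DNA methylation in most of a mammalian genome is high, and it is low at CpG-rich promoters. A mean near the middle can arise when 1 parental allele is methylated, when some cells are methylated and others are not, or when methylated and unmethylated CpGs sit side by side, and a window mean cannot tell these apart. Genomic imprinting is the textbook case of the first. At an imprinted control region the egg or the sperm sets a methyl mark that is kept in all somatic cells, and genes nearby are then expressed by parent of origin. In the early embryo the zinc finger protein ZFP57 binds a methylated TGCCGC hexamer and helps to keep these marks.

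Promoters were shown from RefSeq (GRCm38.p6) for imprinted genes with a run at the start and for the 3 protein-coding genes whose start lay in a run and whose promoter held the most CpGs, a choice made after the values were seen. Each holds 250 bases before and 50 bases after the start, and capitals mark CpG sites.
Mest: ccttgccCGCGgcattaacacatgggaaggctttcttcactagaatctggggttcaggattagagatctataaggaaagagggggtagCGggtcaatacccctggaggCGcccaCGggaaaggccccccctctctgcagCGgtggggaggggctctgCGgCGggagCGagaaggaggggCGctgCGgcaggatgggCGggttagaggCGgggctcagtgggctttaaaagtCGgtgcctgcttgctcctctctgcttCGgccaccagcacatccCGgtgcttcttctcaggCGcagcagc
Airn: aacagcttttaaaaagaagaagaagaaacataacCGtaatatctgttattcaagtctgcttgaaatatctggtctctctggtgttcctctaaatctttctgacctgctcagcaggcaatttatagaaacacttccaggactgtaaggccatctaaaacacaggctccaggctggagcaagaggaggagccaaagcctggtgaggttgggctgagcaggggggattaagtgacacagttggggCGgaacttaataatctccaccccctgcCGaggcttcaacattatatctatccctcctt
Abca14: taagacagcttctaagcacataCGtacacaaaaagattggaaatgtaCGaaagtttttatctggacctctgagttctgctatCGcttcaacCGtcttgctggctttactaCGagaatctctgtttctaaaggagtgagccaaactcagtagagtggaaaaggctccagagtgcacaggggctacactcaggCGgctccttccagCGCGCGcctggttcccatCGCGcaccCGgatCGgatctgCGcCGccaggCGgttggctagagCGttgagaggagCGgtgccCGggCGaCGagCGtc
Il1r2: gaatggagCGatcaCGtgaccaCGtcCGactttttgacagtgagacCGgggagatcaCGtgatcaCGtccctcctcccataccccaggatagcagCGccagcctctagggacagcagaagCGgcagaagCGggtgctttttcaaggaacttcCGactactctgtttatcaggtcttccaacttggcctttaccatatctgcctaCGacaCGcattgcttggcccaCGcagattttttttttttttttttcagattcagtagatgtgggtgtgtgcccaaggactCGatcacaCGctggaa
Cdcp1: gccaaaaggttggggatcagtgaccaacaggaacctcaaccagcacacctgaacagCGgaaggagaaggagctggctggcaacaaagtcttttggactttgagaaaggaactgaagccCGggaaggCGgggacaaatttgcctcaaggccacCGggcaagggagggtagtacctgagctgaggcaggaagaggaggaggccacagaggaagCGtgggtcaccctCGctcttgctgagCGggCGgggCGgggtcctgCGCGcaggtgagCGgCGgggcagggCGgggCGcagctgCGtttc
The Mest promoter (chr6:30737800-30738099, plus strand) held 17 CpGs and the hexamer TGCCGC or its reverse complement. The Airn promoter (chr17:12741061-12741360, plus strand) held 3 CpGs and no such hexamer. Abca14 (an ABC transporter gene; chr7:120203714-120204013, plus strand) held 22 CpGs, while Il1r2 (a decoy receptor for interleukin-1; chr1:40085843-40086142, plus strand) and Cdcp1 (a membrane glycoprotein; chr9:123215989-123216288, minus strand) held 16 each. The hexamer was also in the Il1r2 promoter, and it was in neither the Abca14 nor the Cdcp1 promoter. Most of the Il1r2 promoter, the hexamer included, lay before the run, which began at chr1:40086001. The window just before that run, which holds the start of Gm16894, averaged 12.1%. Promoters with many CpGs were uncommon among the runs. Of the 137 promoters (118 genes) whose start lay in a run, 10.9% held 10 or more CpGs, against 47.8% of the 28855 promoters with a methylation value at the start. The median was 4 CpGs per promoter in the runs and 9 in all promoters. Promoters with a start window under 20% methylation had a median of 22 CpGs, and those above 80% a median of 4. Promoters whose start window averaged from 40 to 60% outside the runs also had a median of 4 CpGs, and 9.14% of them held 10 or more. TGCCGC, sought on both strands, was in 7.30% of the promoters in runs and in 12.6% of all promoters. It was in 4.67% of the promoters of intermediate start windows outside the runs.

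The starts of 58 protein-coding or listed imprinted genes lay in runs. The Abca14 run (chr7:120202001-120204000) had 46.1, 45.1 and 43.1% in aged 1, 2 and 3, against 43.0, 41.7 and 45.1% in mAdu 1, 2 and 3. The Il1r2 run (chr1:40086001-40088000) had 50.35, 51.9 and 49.7% in aged samples and 46.0, 51.1 and 52.9% in mAdu samples, at the border between 30.9% on the left and 78.5% on the right. The Cdcp1 run (chr9:123215001-123217000) had 49.9, 48.4 and 47.0% in aged samples and 47.7, 50.01 and 49.02% in mAdu samples, inside sequence of 78.2 and 78.9%. The age groups overlapped at all 3. A further start in a run, picked after its values were seen, was that of Pgf, which encodes placental growth factor, a ligand of the receptor Flt1. Its run (chr12:85175001-85177000) had 52.5, 47.0 and 52.2% in aged samples and 51.3, 50.8 and 47.7% in mAdu samples.

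Nearly all runs were short. There were 2758 runs of 2 windows, 191 of 3 windows and 24 of 4 windows, and no longer run was found. A further 52119 windows met the bounds in all 6 samples with no such neighbour. The mean over the 6 samples ranged from 41.5 to 59.1% across member windows, with a median of 50.7%. Member windows averaged 50.2, 50.5 and 50.7% in aged 1, 2 and 3, and 50.6, 50.5 and 50.5% in mAdu 1, 2 and 3. Their median within-group SD was 3.11 percentage points, against 5.47 points in the 113012 windows with a mean in the same range but a value outside it, a contrast that the rule itself makes. The bounds are sharp on a continuous scale: a run near Pcdh15 lay inside by 3.73e-05 percentage points, and a pair of windows near Arpp21 lay outside by 0.000122 points.

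To ask whether intermediate methylation carried over to samples that took no part in the choice, runs were found in 1 age group and read in the other. The 5873 runs chosen on the 3 mAdu samples held 12319 windows. In aged 1, 2 and 3, 87.0, 86.4 and 85.9% of these windows lay from 40 to 60%, against 10.5, 10.8 and 10.1% of all windows. The 6033 runs chosen on the 3 aged samples held 12659 windows. In mAdu 1, 2 and 3, 85.8, 85.7 and 86.0% of these windows lay within the bounds, against 10.2, 10.4 and 10.4% of all windows. Single windows chosen in 1 group thus mostly lay within the bounds in each sample of the other. Of windows in bounds in all 3 aged samples, in runs or not, 64.9% were so in all 3 mAdu samples. The other way it was 66.3%. On all 6 samples 2973 runs met the rule. The share of all windows is a loose comparison, since it takes in windows of every level. All 6 samples also chose the runs described here, so this reading is a description.

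Imprinted control regions were among the runs but made up few of them. A run lay within 5 kb of 7 of the 40 genes listed for germline differentially methylated regions (DMRs), and there were 7 such runs. The windows near these genes were in runs in 0.6499% of cases, against 0.367% of all windows. Without mAdu 3, 12 runs met the rule at these genes, and without any other single sample 8 to 10 did. The runs at Mest, Impact and the start of Airn lay at control regions known from imprinting studies.

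Mest, a paternally expressed hydrolase-like gene, had a run of 3 windows that ended 50 bp before an annotated start (chr6:30735001-30738000). It was methylated at 46.3, 48.7 and 44.8% in aged 1, 2 and 3, against 48.2, 47.3 and 45.1% in mAdu 1, 2 and 3. The groups overlapped, with a mean of 46.6 ± 2.0% in aged and 46.9 ± 1.6% in mAdu samples (SD, n = 3 each). The 3 kb before the run averaged 81.2% and the 3 kb after it 53.8%, and intermediate methylation went on for 3 more windows in which single values crossed the bounds.

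Impact, a paternally expressed regulator of translation, had a run of 3 windows inside the gene (chr18:12972001-12975000). Its level was 48.4, 48.0 and 49.03% in aged 1, 2 and 3, against 44.0, 49.8 and 43.9% in mAdu 1, 2 and 3. It stood out sharply from its surroundings, which averaged 91.8 and 93.7% on the sides. The difference of 2.61 points was within the spread of the mAdu samples, whose SD was 3.38 points.

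Airn is the paternally expressed long RNA that silences Igf2r, the maternally expressed receptor for insulin-like growth factor 2 and mannose 6-phosphate, and its start lies within Igf2r. The run of 2 windows that held that start (chr17:12741001-12743000) had 54.7, 48.7 and 49.6% in aged 1, 2 and 3, against 51.5, 49.2 and 44.2% in mAdu 1, 2 and 3. A further run inside Igf2r, 7690 bp from the Airn start (chr17:12749001-12751000), had 50.8, 48.7 and 48.7% in the aged samples and 52.7, 49.5 and 48.9% in the mAdu samples. Both runs were dips, with 70.2 to 84.5% methylation on their sides, and the groups overlapped in both.

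The other 3 runs at this list, like the second Igf2r run, lay away from the best known control regions. Gnas encodes the stimulatory G protein alpha subunit and has alternative imprinted promoters. Its run (chr2:174334001-174336000), 3995 bp from an annotated start, had 45.4, 52.8 and 46.7% in aged 1, 2 and 3, against 47.6, 48.6 and 50.2% in mAdu 1, 2 and 3. It formed a border, with 12.7% on its left and 67.2% on its right. Kcnq1, a potassium channel gene, had a run (chr7:143105001-143107000) with 53.7, 50.8 and 51.4% in aged samples and 55.1, 50.5 and 50.7% in mAdu samples, also a border between 77.1% and 5.82%. Trappc9, whose introns hold the imprinted Peg13, had a run (chr15:73031001-73033000) with 50.05, 45.9 and 50.3% in aged samples and 53.7, 53.1 and 50.9% in mAdu samples. It was the only run of these 7 in which the groups did not overlap, at -3.82 points (aged minus mAdu). No window of it passed the genome-wide test. The groups did not overlap in 10.2% of all runs and in 10% of all windows.

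**Figure D1:**
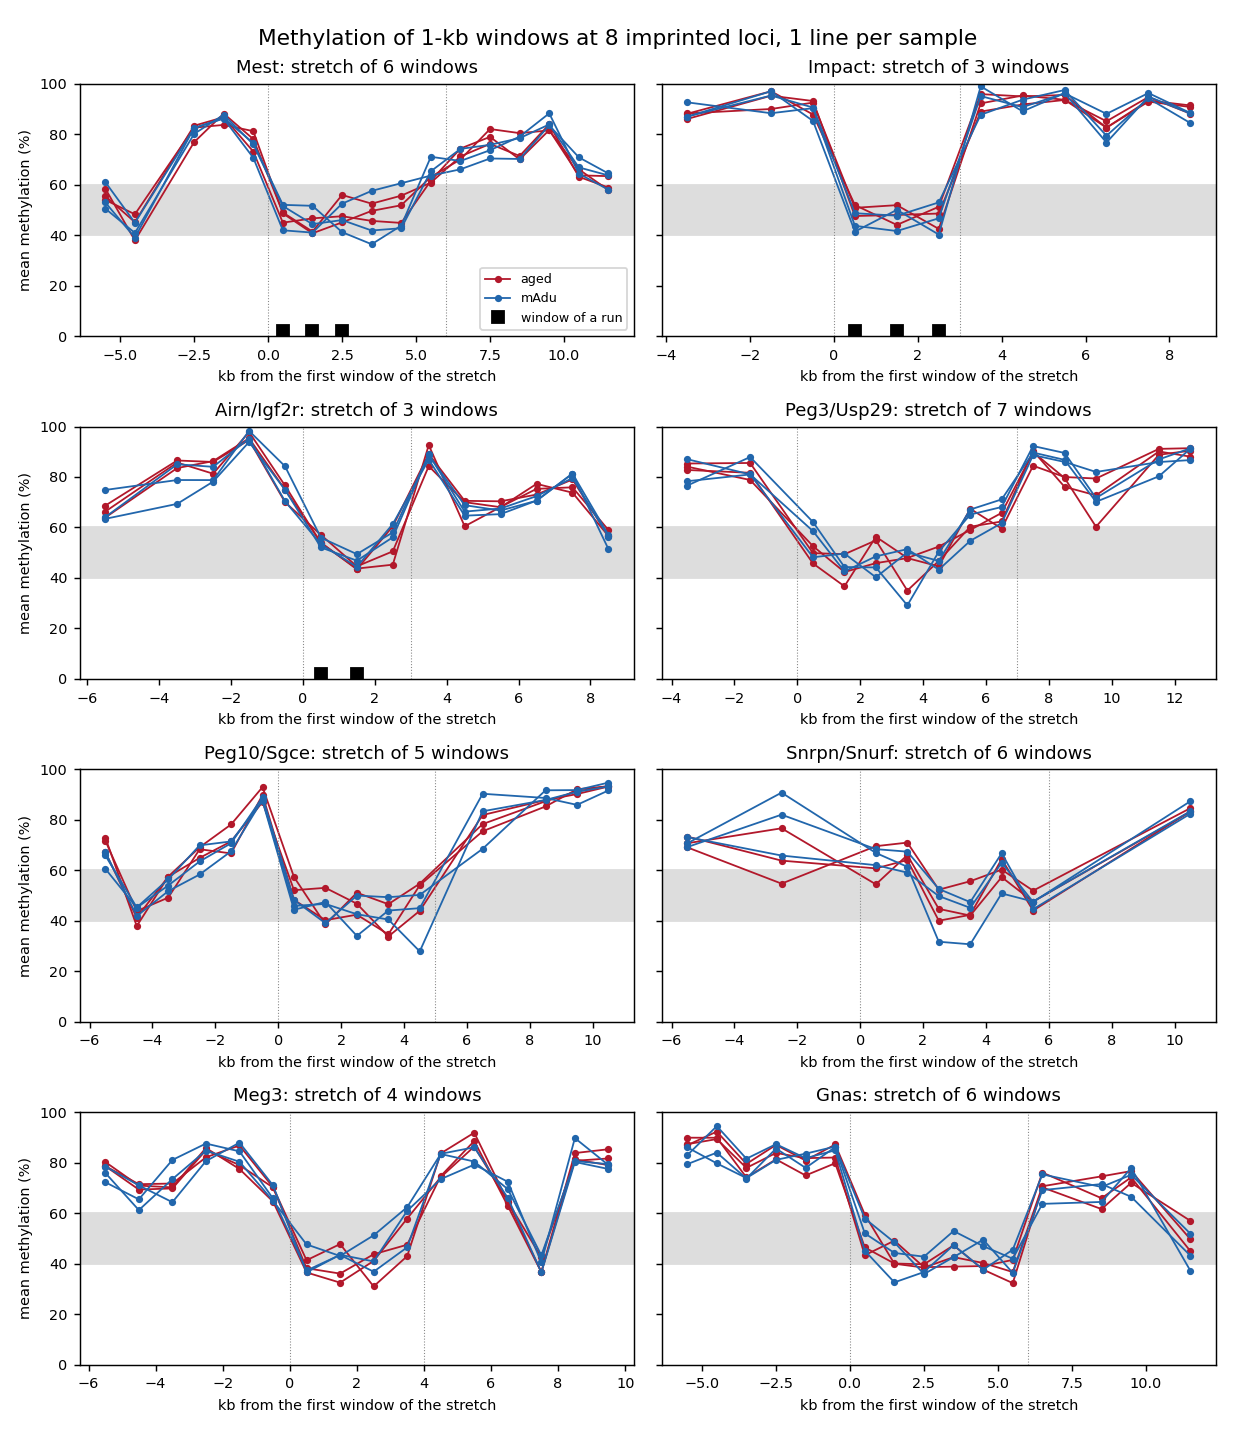
Mean methylation (%, y axis) of 1-kb windows against the distance in kb from the first window of a stretch, at 8 imprinted loci. A stretch is made of neighbouring windows with means from 35 to 65%. Lines stand for samples (aged red, mAdu blue) and join neighbouring windows that have values. The grey band spans 40 to 60%, dotted lines bound the stretch and black squares mark windows of a run. The loci were chosen after their values were seen. Of the 8 stretches, those at Mest, Impact and Airn/Igf2r hold a run. The Airn/Igf2r panel shows the second Igf2r run and not the stretch that holds the Airn start.

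Listed genes also had intermediate windows that did not meet the rule. For most listed genes the stretch of windows with a mean of 35 to 65% nearest to each annotated start was read. For H19, Kcnq1, Peg10, Sgce, Impact, Peg13 and Trappc9 the edges of the gene took the place of starts. Any stretch that held a run was read too, and this description was added after the data were seen. There were 32 such stretches of 2 or more windows, holding 113 windows. The choice itself fixes their mean levels, 39.8 to 63.7%, and the same was not read at other genes, so these levels support nothing about the list. Of the 113 windows 33 had all 6 values within the bounds, and 16 lay in runs. Of the 678 single values 113 were under 40% and 88 were over 60%, so many stretches missed the rule by more than a few values.

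Peg3, a zinc finger gene expressed by the father's allele, and its divergent partner Usp29 shared a stretch of 7 intermediate windows (chr7:6727001-6734000). They averaged 52.0, 51.2 and 51.5% in aged 1, 2 and 3, against 51.9, 51.5 and 53.3% in mAdu 1, 2 and 3, but only 2 of the 7 windows stayed within the bounds in all samples. Peg10, a gene derived from a retrotransposon, and Sgce shared 5 windows (chr6:4745001-4750000) at 43.9, 45.9 and 49.7% in aged samples and 47.4, 43.0 and 40.7% in mAdu samples. The Peg3 means stayed within a narrow range over samples and the Peg10 means ranged more widely.

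Snrpn, a splicing gene of the Prader-Willi region, had 6 windows (chr7:60002001-60008000) that averaged 60.1, 52.6 and 52.0% in aged samples and 48.2, 54.4 and 57.9% in mAdu samples, with a range over samples wider than at Peg3. Meg3, a maternally expressed long RNA, had 4 windows (chr12:109540001-109544000) at 40.8, 41.4 and 42.0% in aged samples and 51.1, 41.0 and 45.5% in mAdu samples. The first Gnas stretch (chr2:174283001-174289000), 6 windows long, averaged 41.7, 40.6 and 42.9% in aged samples and 45.1, 40.8 and 46.8% in mAdu samples. Of the Meg3 values 8 of 24 lay under 40% and 2 over 60%, and of the Gnas values 14 of 36 lay under 40% and 0 over 60%.

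Further stretches spanned a range of levels. Over the 6 samples, Plagl1 averaged 47.8% in 2 windows, Nnat 48.4% in 2, Mcts2 49.6% in 2, Slc38a4 45.8% in 2, Zrsr1 42.7% in 3, Kcnq1ot1 43.7% in 2, Peg13 48.4% in 6 and H19 51.5% in 2. Other stretches lay higher or lower, among them Blcap at 56.9% in 3 windows, Fkbp6 at 56.8% in 2, a stretch of Kcnq1 at 63.7% in 2 and one of Gpr1 at 39.8% in 2. Of the 33 listed genes without a run, 32 had a window within 5 kb whose mean lay from 40 to 60%, and Zfp777 had none, with a closest mean of 62.4%. Since 10.2% of all windows have such a mean and 2462 windows lay near the 40 genes, this count is no result about the list.

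Genes imprinted in at least some tissues, but not listed for a germline DMR, gave 11 runs at 8 of 56 genes, and 0.506% of the windows near them lay in runs. Rian, a long RNA of the Meg3 cluster that hosts small nucleolar RNAs, had a run (chr12:109612001-109614000) at 45.4, 48.6 and 46.3% in aged samples and 49.8, 44.6 and 49.1% in mAdu samples. Calcr, the calcitonin receptor gene, had a run near its start (chr6:3766001-3768000) at 49.4, 51.7 and 48.9% in aged samples and 52.6, 55.1 and 48.3% in mAdu samples, next to 11.7% on its left. Th, which encodes tyrosine hydroxylase, had a run (chr7:142894001-142896000) at 55.01, 54.0 and 51.4% in aged samples and 55.4, 52.4 and 47.6% in mAdu samples. In all 3 the groups overlapped. The other runs on this list were inside Phactr2 (2 runs), Pde4d (2), Smad6 (2), Gab1 (1) and Plg beside Slc22a3 (1), with sample levels of 43.6 to 56.7%. Smad6, an inhibitor of bone morphogenetic protein signalling, had a run (chr9:64002001-64004000) with 45.6, 51.3 and 49.1% in aged samples and 43.6, 44.8 and 44.1% in mAdu samples. Its groups did not overlap, at 4.53 points higher in aged samples, and no window of it passed the genome-wide test. Such a lack of overlap was found in 10.2% of all runs.

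**Figure D2:**
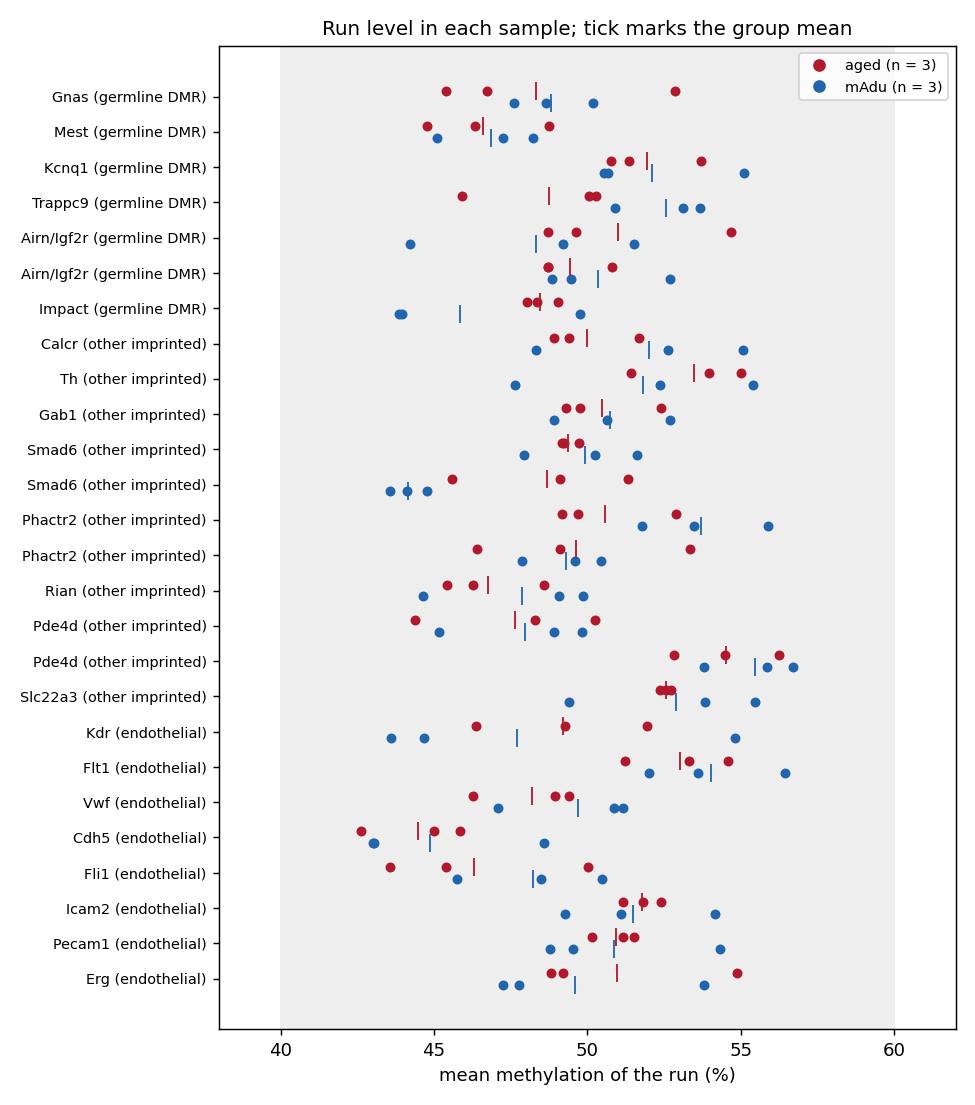
Mean methylation (%, x axis) of each run near a listed imprinted gene or an endothelial identity gene in each sample; points are samples (aged red and above, mAdu blue and below, n = 3 each), ticks are group means and the grey band spans 40 to 60%. Aged and mAdu points intermix in most runs, and at Trappc9 and the second Smad6 run they do not overlap. Of all half-methylated runs, 10.2% have groups that do not overlap.

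All but 18 runs, 2955 of 2973 (99.4%), lay near no listed imprinted gene. Their median level was 50.5%. Among them, genes of endothelial identity stood near runs in 8 of 25 cases, and 1.10% of the windows near these genes lay in runs, against 0.367% of all windows. The 8 genes encode receptors for vascular endothelial growth factor (Kdr, Flt1), adhesion proteins (Cdh5, Pecam1, Icam2), von Willebrand factor (Vwf) and ETS transcription factors (Erg, Fli1). Icam2, Pecam1 and Flt1 were named by the fixed rule, and the other 5 after their values were seen. Only 13 of the 25 endothelial genes had a start window to read, and these need not include all 8 genes with runs. The starts that were read were mostly unmethylated. The lowest start window of a gene had a median of 2.57% over the 13 genes. It was under 20% in 12 of them and at most 29.7%. That median was 59.8% over 15 haematopoietic markers (1 under 20%), 37.1% over 13 epithelial markers (4 under 20%) and 3.48% over 11 mesenchymal markers (7 under 20%). The part of other cell types in the half-methylated levels was not tested.

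At endothelial genes the runs lay beside or between low windows as well as in methylated gene bodies. The Icam2 run (chr11:106377001-106379000) was at 51.2, 52.4 and 51.8% in aged 1, 2 and 3, against 49.3, 51.1 and 54.2% in mAdu 1, 2 and 3. It was a hump, since its sides averaged 32.5 and 17.3%. The Pecam1 run (chr11:106687001-106689000) had 51.5, 50.1 and 51.2% in aged samples and 49.5, 54.3 and 48.8% in mAdu samples, at the border between 39.0% on the left and 75.6% on the right. The Kdr run (chr5:75937001-75939000) had 46.4, 49.3 and 51.9% in aged samples and 44.7, 43.6 and 54.8% in mAdu samples, between sides of 43.4 and 39.8%. Around these 3 genes the run stood next to windows of low or intermediate methylation.

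The other 5 endothelial runs were dips in methylated sequence. The Flt1 run (chr5:147706001-147708000) had 51.2, 54.6 and 53.3% in aged samples and 53.6, 56.5 and 52.0% in mAdu samples. The Vwf run (chr6:125552001-125554000) had 49.4, 48.9 and 46.3% in aged samples and 47.1, 50.9 and 51.2% in mAdu samples. The Cdh5 run (chr8:104145001-104147000) had 44.997, 45.8 and 42.6% in aged samples and 43.0, 43.0 and 48.6% in mAdu samples. Their groups overlapped, and so did those of Fli1 (chr9:32478001-32480000) and Erg (chr16:95432001-95434000), whose sample levels ran from 43.5 to 54.9%. Sides of these 5 runs averaged 64.0 to 83.7%.

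The remaining lists had 0 to 4 runs each. Lung capillary genes had runs at Cyp4b1 and Nrp1 (2 of 18 genes), arterial, venous and lymphatic genes at Reln (1 of 22), epithelial markers at Cdh1 (1 of 20), mesenchymal markers at Col1a1, Pdgfrb and Wt1 (3 of 20), and haematopoietic markers at none (0 of 23). Germline genes, many of which are held silent by methylation in somatic cells, had runs at Piwil2 and Tdrd9 (2 of 26). Windows near these lists lay in runs in 0.630% (lung capillary), 0.181% (arterial, venous and lymphatic), 0.380% (epithelial), 1.22% (mesenchymal), 0% (haematopoietic) and 0.988% (germline) of cases. Each of these shares above 0 rests on 2 to 8 member windows, and the endothelial 1.10% on 16. The shares describe the lists and rank nothing. A share above that of all windows was not particular to endothelial genes, since mesenchymal markers and germline genes also had one. The run near Pdgfrb, a receptor for platelet-derived growth factor (chr18:61041001-61045000), was 4 windows long and had 51.0, 52.5 and 48.1% in aged samples and 49.1, 49.4 and 49.7% in mAdu samples. The Cdh1 run (chr8:106601001-106603000), near the gene of epithelial cadherin, had 47.2, 51.5 and 51.9% in aged samples and 48.97, 48.3 and 48.7% in mAdu samples, beside 21.9% on its right.

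**Figure D3:**
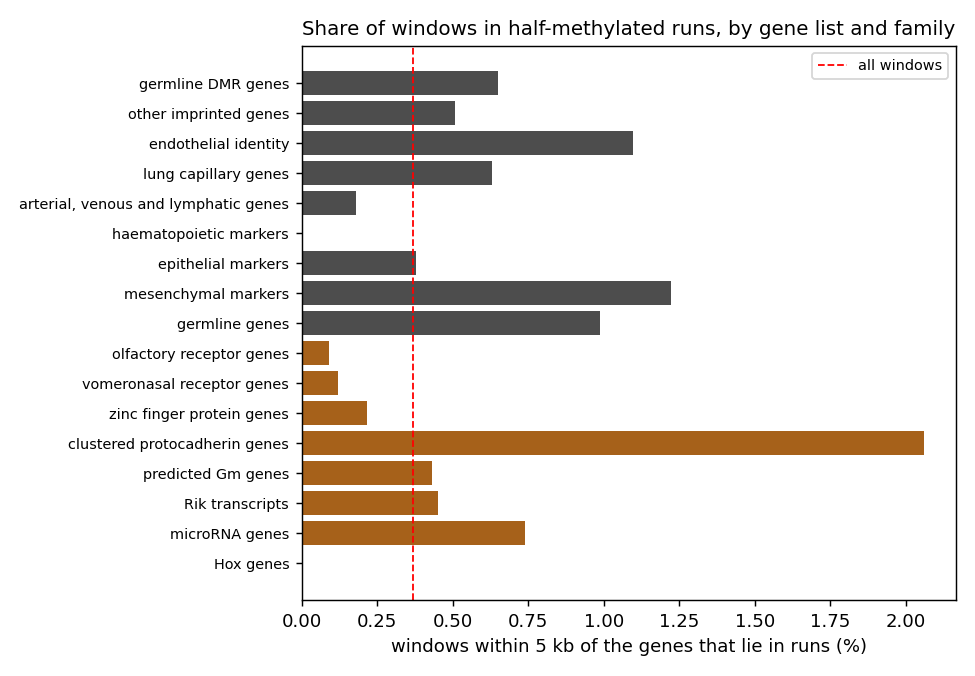
Share (%) of the windows within 5 kb of each gene list (grey) or gene family (brown) that lay in half-methylated runs; the dashed line marks the 0.367% of all windows. The clustered protocadherin genes reach 2.06%, and haematopoietic markers and Hox genes have 0%.

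Of the runs of 4 windows near no gene of any list, 10 were described, those whose level differed least between samples. Those over genes were in Mroh2a, in Osbp2 (oxysterol-binding protein 2), in Ciita, the master activator of MHC class II genes, 141 bp from a start of Tpst2 (a tyrosylprotein sulfotransferase) and over the start of Crybb3 (a lens crystallin). Others lay close to Hjurp, the chaperone of the centromeric histone CENP-A, and Ccdc188, and 3 lay 17114 to 59830 bp from the nearest protein-coding gene (Zfp982, Hrh2 and Bicc1). The Crybb3 run (chr5:113079001-113083000) had 50.8, 49.8 and 50.6% in aged samples and 49.1, 49.9 and 49.1% in mAdu samples, and the sides were at 74.0 and 79.7%. The Tpst2 run (chr5:112293001-112297000) had 49.7, 50.8 and 47.4% in aged samples and 47.6, 47.7 and 48.2% in mAdu samples, and it was a hump between 33.6 and 23.9%. The Ciita run (chr16:10499001-10503000) had 53.8, 50.03 and 51.8% in aged samples and 52.9, 52.7 and 52.3% in mAdu samples. Over the 10 runs, sample levels lay between 46.4 and 53.9%, a narrow range that this choice and the bounds favour.

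The clustered protocadherin genes, cell-surface proteins of which each neuron expresses a random few, had 10 of 485 nearby windows in runs (2.06%), in 5 runs on chromosome 18. These were named after their values were seen. One lay at Pcdha1 to Pcdha4 (chr18:36952001-36954000) with 42.6, 46.5 and 45.1% in aged samples and 43.8, 49.1 and 44.8% in mAdu samples. Another lay at Pcdhb4 (chr18:37311001-37313000) with 43.2, 47.1 and 41.8% in aged samples and 46.2, 51.6 and 49.04% in mAdu samples. The other 3 lay in the gamma cluster, with sample levels of 46.7 to 55.6%. Olfactory receptor genes (0.0899%), vomeronasal receptor genes (0.120%) and zinc finger genes (0.217%) were below the 0.367% of all windows, and Hox genes had no run in 431 windows, where methylation averaged 22.2%. Windows near microRNA genes were in runs in 0.737% of cases. Of 919 microRNA hairpins 6 lay in runs, among them Mir26a-1 nearest to Ctdspl (54.1, 53.8 and 54.4% in aged samples; 42.9, 54.9 and 51.6% in mAdu samples).

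Most runs were dips, in a share near that of other intermediate pairs and below that of all pairs. The 3 kb on each side were both above 60% at 1747 runs (58.8%), against 54.96% of other pairs of windows with means from 40 to 60% and 70.8% of all pairs. At 852 runs (28.7%) a side lay itself from 40 to 60%, 241 (8.11%) were borders between a side above 60% and a side under 40%, 33 (1.11%) were humps between sides under 40%, and 100 had no value on a side. From 1 to 10 kb away, windows averaged 69.0, 69.0 and 69.5% in aged 1, 2 and 3, against 69.4, 69.2 and 69.1% in mAdu 1, 2 and 3. The samples differed by little there, with an SD of 0.212 points over the 6. A window next to a run cannot itself meet the bounds in all samples, which raises or lowers the nearest flank by construction.

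**Figure D4:**
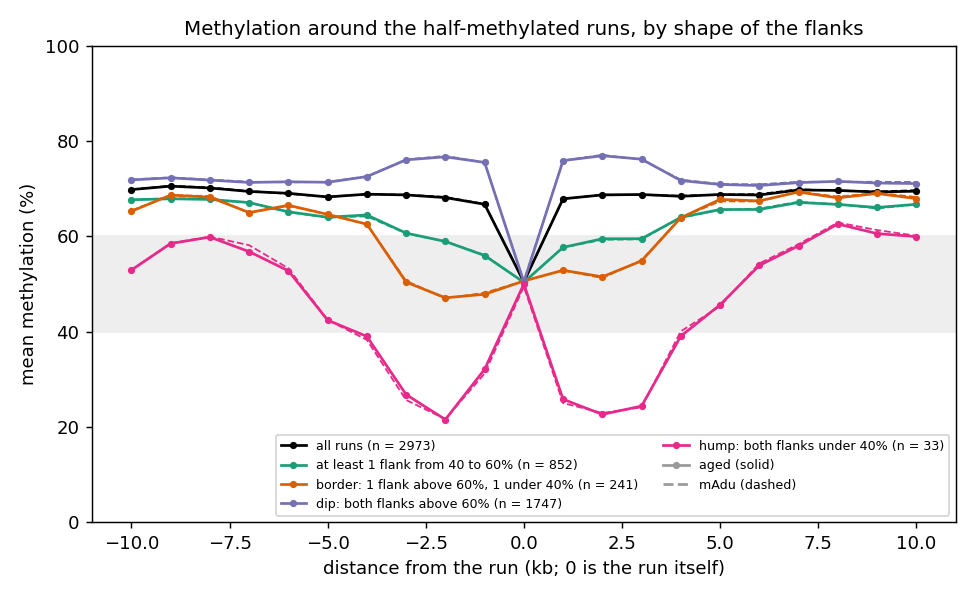
Mean methylation (%, y axis) of windows up to 10 kb on each side of the half-methylated runs (0 is the run), for all runs and by shape of the flanks; solid lines with points are aged samples and dashed lines mAdu samples (means of 3), and the grey band spans 40 to 60%. The lines of the age groups lie on each other; borders are averaged over both orientations.

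Runs occurred in genes, between them and, in few cases, at starts. Of the runs 1524 (51.3%) overlapped a protein-coding gene, 116 held an annotated start, and 545 lay over 50 kb from a protein-coding gene. Away from chromosome 18, for which no starts were used, 6.06% of member windows lay within 1 kb of a start, against 4.24% of all windows. A further 47.4% lay elsewhere inside a protein-coding gene, against 44.1% of all windows, and 46.6% lay outside, against 51.7%. The share of windows in runs was lowest on chromosome 3 (0.254%) and highest on chromosome 11 (0.507%). Runs were spread unevenly: 1389 of 2413 intervals of 1 Mb held a run, and the densest held 12, against a mean of 1.23. That interval lay on chromosome 4 and held Hes3, Chd5, Kcnab2 and Ajap1 among others. Several intervals held 9 or more runs. Among them, an interval on chromosome 8 with 9 runs held Foxf1 and Foxl1, forkhead genes, of which Foxf1 is known for its role in lung vessels. It is given for these genes and not for its rank, and a link of its runs to them was not tested.

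No member window was called with age by the genome-wide test. That test called 355 of 1683697 windows (0.0211%; limma, Benjamini-Hochberg adjusted p under 0.05) and 0 of the 6185 member windows, with a lowest adjusted p of 0.978 among them. At an unadjusted p under 0.05, 101 member windows (1.63%) passed, against 4.67% of all windows. Leaving out any single sample raised the number called over all windows, to 680 to 998, so this count is unstable. The groups did not overlap in 623 member windows (10.1%), against 10% of all windows, and in 303 runs (10.2%). Since the rule holds every value within 20 points, it limits the difference that a run can show, and the low counts say nothing of ageing at other intermediate windows.

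The differences between age groups at runs were small and centred near 0. The median was -0.0681 points (aged minus mAdu), the 5th and 95th percentiles were -3.53 and 3.32 points, and 1527 runs were lower and 1446 higher in aged samples. Among runs whose groups did not overlap, the 5 largest positive differences, 6.04 to 7.93 points, lay in or nearest to Rad54l, Dlgap2, Nrp1, Lrfn3 (13514 bp away) and Frmpd1. The 5 with the most negative differences, -6.90 to -6.61 points, lay nearest to Grhl2, Rhbg, Csmd1, Immp2l and Pkdcc. Of these only the Csmd1 run overlapped its gene, and the others lay 13874 to 307413 bp from theirs. Nrp1 encodes neuropilin 1, a co-receptor for vascular endothelial growth factor, and its run (chr8:128375001-128377000) had 51.5, 51.5 and 47.6% in aged samples and 44.3, 42.9 and 44.7% in mAdu samples. The run near Rad54l, a DNA repair gene (chr4:116128001-116130000), had 58.4, 56.3 and 56.9% in aged samples and 47.0, 51.3 and 49.5% in mAdu samples. In both runs every aged sample was above every mAdu sample. They were picked as extremes among 2973 runs, and none of their windows passed the test.

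**Figure D5:**
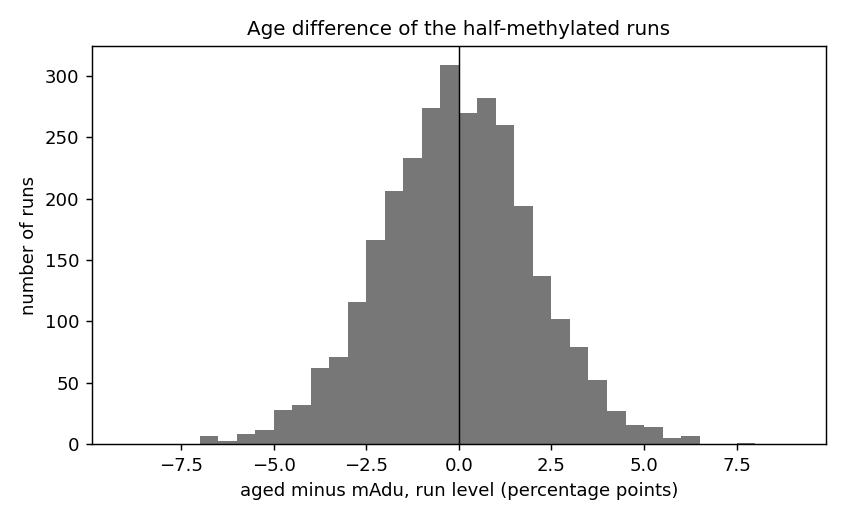
Histogram of aged minus mAdu methylation (percentage points, x axis) over the 2973 half-methylated runs (y axis, number of runs). The distribution centres near 0, with a median of -0.0681 points.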

How the data were processed

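DNA of sorted lung endothelial cells was turned into 3 tagmentation libraries per sample of 30 ng and sequenced as 100 bp paired ends, per the labels' protocols. Reads were aligned with BWA 0.7.8 to mm10, per the submitters' processing notes. The deposited table gives for 1-kb windows a mean methylation as a fraction, which was multiplied to percent here; no source used here names the methylation caller, a coverage filter or the way CpGs and libraries were averaged, and depth is unknown. Windows with a value in all 6 samples on 19 autosomes were used. Neighbouring windows with all values from 40 to 60% made the runs (pandas 2.3.3, numpy 2.4.6), after a check on simulated data. Age was tested in each of the 1683697 windows with limma 3.58.1 (R 4.3.3) on percent with a variance trend, and p-values were adjusted by Benjamini-Hochberg over all of them; an exact permutation test of 3 against 3 cannot go below 0.1. Genes within 5 kb came from RefSeq GRCm38.p6. Named runs were those at germline DMR and other imprinted genes, up to 3 longest per other list, the 10 longest others and the 5 largest differences each way. The members and lists were chosen with earlier results of these data known. Alternatives changed the bounds, run length, scale, replicate block, extreme windows, flank width and single samples.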

Additional observations from a re-analysis of the deposited data

How the results depend on the processing

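The number of runs rests on the bounds. With 45 to 55% there were 67 runs (135 windows), with 35 to 65% 13408 (28915 windows), and with 3 or more windows per run 215 (669 windows). At germline DMR genes these gave 0, 41 and 2 runs, and at other imprinted genes 0, 51 and 0. Leaving out single samples gave 8 to 12 runs at germline DMR genes, the 12 without mAdu replicate 3. The flank level of 69.2% became 68.6% over 1 to 5 kb and 67.2% for runs of 3 or more windows. The count of 355 windows called with age became 145 on a logit scale, 59 without windows of extreme values, 185 with a replicate block and 680 to 998 without single samples, while no member window was called under any of these. Replicate numbers were not taken to pair the samples: same-numbered samples correlated at -0.0116, -0.0167 and -0.0006 in their deviations from group means. Without single samples, an alternative added after seeing the data, 28 of 50 named runs kept the sign of their age difference and 22 did not under some omission. The cause of these changes was not tested. Read depth was not given, so its limits are unknown.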
